A study of Zea mays with 54 samples.

Results

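The genes described here are 4 maize genes of sucrose and starch metabolism, SPP2, Agp2, sh1 and ss2. A probe was taken as a member when its single annotated gene was one of these 4, by gene identifier or RefSeq synonym. This gave 30 probes of 37662 with values, and 4 of 824 genes that could be named. SPP2 had 2 probes, Agp2 had 3, sh1 had 11 and ss2 had 14, and every one of them had a value on each slide of its array design. Agp2 here is the gene with the RefSeq synonym Agpsemzm, not the different gene written AGP2. The symbol ss2 stands in RefSeq beside the synonym sus1 and names a sucrose synthase, not a starch synthase.

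Cells were cut by laser microdissection from the L1, the outermost cell layer of the shoot apical meristem, and from the L2, used in the labels for the corpus below it. The plants were 14-day-old vegetative seedlings of the inbred line B73, and each replicate pooled the cells of 5 to 10 meristems. About 1 ng of total RNA from each layer was amplified, labelled with Cy3 or Cy5 and hybridised as a pair to a slide of spotted cDNAs. The 3 array designs had 6 slides each (numbered 1 to 6, 7 to 12 and 13 to 18), with L1 in Cy3 on odd slides and in Cy5 on even slides, and 3 readings of each slide under the letters L, M and H. Both layers came from 1 untreated inbred line, and laser-cut cells of a layer can include neighbours at its border. Extract numbers recur between the designs, which means that the same plants can stand behind several designs, and slides 1 and 2, and slides 5 and 6, share an L2 number.

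Sucrose is the form in which most plants carry carbon to growing tissue, the meristem included. It is made by sucrose-phosphate synthase followed by sucrose-phosphate phosphatase, which removes the phosphate. In receiving tissue, sucrose synthase cleaves it reversibly to fructose and UDP-glucose, which can feed cell wall and starch synthesis. ADP-glucose pyrophosphorylase, built of small and large subunits, makes ADP-glucose, the sugar donor for starch.

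Each value below is a log ratio of the 2 channels of a slide, averaged over its 3 readings and turned so that a value above 0 means more transcript in L1. The files hold ratios only, so no level per layer can be given, and fewer transcripts per cell cannot be told apart from fewer expressing cells. No source used here names the logarithm's base or the numerator dye. Folds are therefore given for base 2 and for the natural logarithm. Before turning, slides of opposite dye orientation had a median correlation of 0.0265 on the first design, -0.164 on the second and -0.162 on the third. Slides of like orientation had 0.451, 0.269 and 0.271. These correlations bear on whether the values follow the dyes but not on which dye is the numerator. Cy5 is taken as the likely numerator because ocl1 and ocl4, genes of the outer cell layer, then stand higher in L1 and the corpus gene kn1 lower. With the other numerator every sign below would turn.

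The marker genes set this direction, so they are no independent check of the labelled layers. Of 13 probes for outer cell layer genes, 8 were higher in L1, among them ocl1 at 0.90 to 1.00 on 4 of 4 probes and ocl4 at 2.12 and 2.65 on 2 of 3. One ocl3 probe lay at -0.15 and did not pass the test. The corpus gene kn1, a homeobox regulator of the meristem, was lower in L1 on 5 of 8 probes, between -1.72 and -0.37. The other corpus gene, knox3, lay on the opposite side, at 0.17 on slides 7 to 12 (above 0 on 5 of 6 slides) and 0.11 on slides 13 to 18 (6 of 6), and did not pass the test. Of 24 probes for leaf primordium genes, 6 were higher in L1, and all 6 belong to the yabby family (0.46 to 2.12). The other leaf genes, rs2 (-0.36, -0.20 and -0.32 on the 3 designs) and rld1 (-0.21 to 0.38), did not pass the test. The list median was -0.06 on slides 1 to 6, 0.50 on slides 7 to 12 and 0.27 on slides 13 to 18. None of 5 probes of the phloem and vascular genes sut1 and vpp1 passed the test (-0.04 to 0.21). The heat shock gene hsp18a, listed as a sign of tissue handling, was higher in L1 on 2 of 3 probes on slides 1 to 6 (0.07 to 0.71) and on 0 of 4 on slides 13 to 18 (-0.12 to 0.41). It had no probe with values on slides 7 to 12.

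Of the 4 genes, SPP2 was higher and Agp2 lower in L1 on slides 1 to 6, and 1 of 2 Agp2 probes was also lower on slides 13 to 18, while no probe of the sucrose synthase genes sh1 and ss2 passed the test. On slides 1 to 6, 2 of 16 member probes had a limma adjusted p under 0.05, where 2.84% of all probes did. On slides 7 to 12 it was 0 of 5 member probes against 1.43% of all probes, with neither SPP2 nor Agp2 present on that design. On slides 13 to 18 it was 1 of 9 member probes against 1.57% of all probes. The same sign on all 6 slides was found for 2 of 16 member probes on slides 1 to 6 (7.43% of all probes), for 0 of 5 on slides 7 to 12 (9.06%) and for 2 of 9 on slides 13 to 18 (8.96%). All 4 of these member probes belong to SPP2 and Agp2. The members were chosen with earlier results of these data known, so these counts do not show an excess over all probes.

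**Figure D1:**
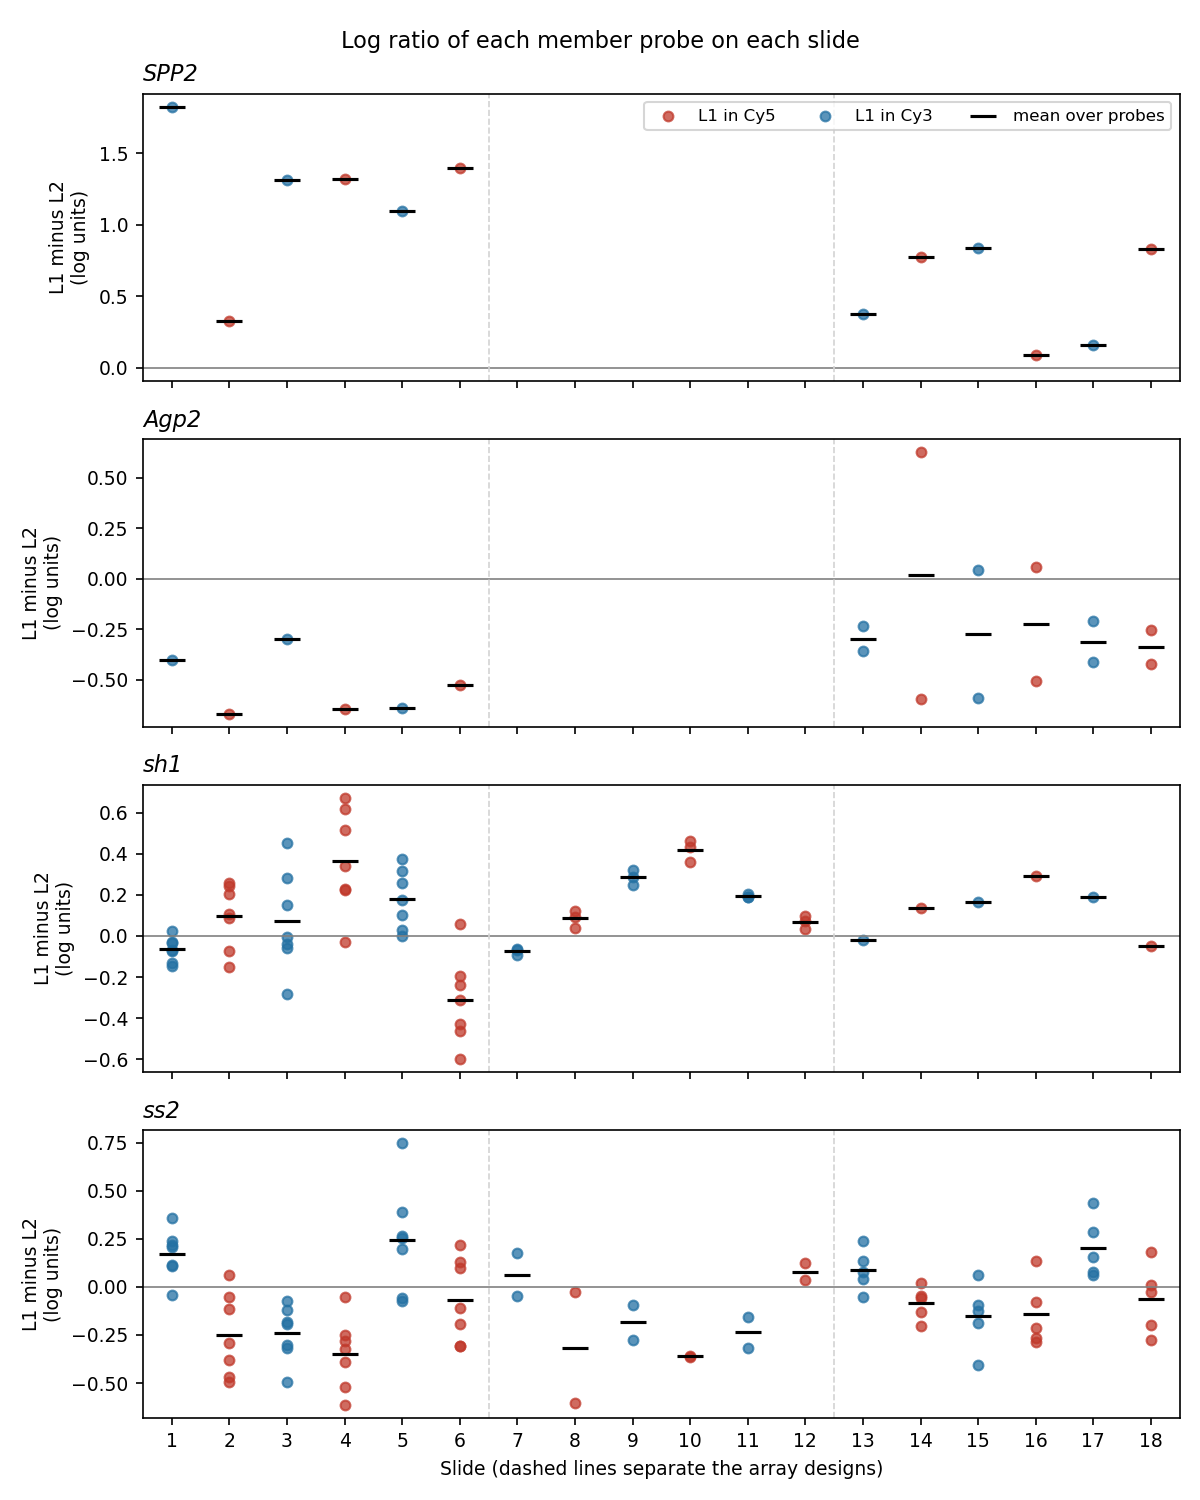
Log ratio, L1 minus L2 in log units, of every member probe (points, coloured by the dye that L1 carried) on each of the 18 slides, with the mean over a gene's probes as a black bar. SPP2 stood above 0 on all 12 slides that carry it, Agp2 probes 17672 and 4146 below 0 on all of theirs, and the sh1 and ss2 points on both sides of 0.

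SPP2, a sucrose-phosphate phosphatase, carries out the last step of sucrose synthesis. Its probe 2379 had log ratios of 1.83, 0.33, 1.32, 1.32, 1.10 and 1.40 on slides 1 to 6. Every slide was above 0, slide 1 was the highest, and slide 2 stood well below the other five. The fitted difference, L1 minus L2, was 1.22 ± 0.145 (SE, n = 6 slides, 95% interval 0.89 to 1.54) with a limma adjusted p of 0.00108. That is 2.32-fold higher in L1 at base 2 and 3.37-fold with the natural logarithm, and it ranked 44 by size among 14401 probes. The 3 slides with L1 in Cy5 averaged 1.02 ± 0.596 (SD), and the 3 with L1 in Cy3 averaged 1.41 ± 0.374. The dye term of this probe did not pass the test (adjusted p = 0.413 in limma). Over all 14401 probes of slides 1 to 6, the dye term passed for 415 and the layer term for 409. Without slides 1 and 5, whose labels pair unlike extract numbers, the SPP2 difference was 1.17 and did not pass the test. That fit keeps slide 3 as the only slide with L1 in Cy3. On slides 1 to 6, 2 of 3 hsp18a probes and 2 of 7 leaf primordium probes were higher in L1, the leaf list with a median of -0.06. Their part in the SPP2 result was not tested.

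The array design of slides 13 to 18 carries the same SPP2 cDNA, by its sequence accession in the annotation, under probe 2023. Its log ratios were 0.38, 0.78, 0.84, 0.09, 0.16 and 0.83. All 6 slides were again above 0, but slides 16 and 17 lay close to it. The difference was 0.51 ± 0.124 (SE, n = 6 slides, 95% interval 0.22 to 0.80), 1.43-fold at base 2 and 1.67-fold with the natural logarithm. Its limma p was 0.00427 and its adjusted p 0.127, so the probe did not pass the test on this design, and it ranked 169 by size among 14270 probes. Of the extract pairs that both designs used, number 2 gave 0.33 on slide 2 and 0.78 on slide 14. Number 3 gave 1.32 on slide 3 and 0.84 on slide 15, and number 4 gave 1.32 on slide 4 and 0.09 on slide 16. The same numbered extracts thus gave different SPP2 values on the 2 designs, lower on the first for number 2 and higher for numbers 3 and 4. Over all slides the mean was higher by 0.71 on slides 1 to 6 than on slides 13 to 18 (exact permutation test within dye orientation, two-sided p = 0.03, adjusted p = 0.12 over 8 comparisons, smallest possible p 0.005). That difference between designs did not pass the test, which treats the slides as independent although the designs share extracts.

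The SPP2 values also moved with the reading of a slide. For probe 2379 the highest and lowest of the 3 readings lay 0.59 apart on the median slide and 1.04 apart on slide 1, where L gave 2.42 and M gave 1.38. On slide 2 the M reading was -0.03, against 0.54 for L and 0.48 for H. For probe 2023 the median spread was 0.43, and on slide 16 the L reading was -0.37, against 0.40 for M and 0.23 for H. Agp2 probe 17672 had a median spread of 0.06 between readings. The SPP2 difference on slides 1 to 6 passed the limma test with each reading alone, at 1.43 for L, 1.00 for M and 1.22 for H.

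**Figure D2:**
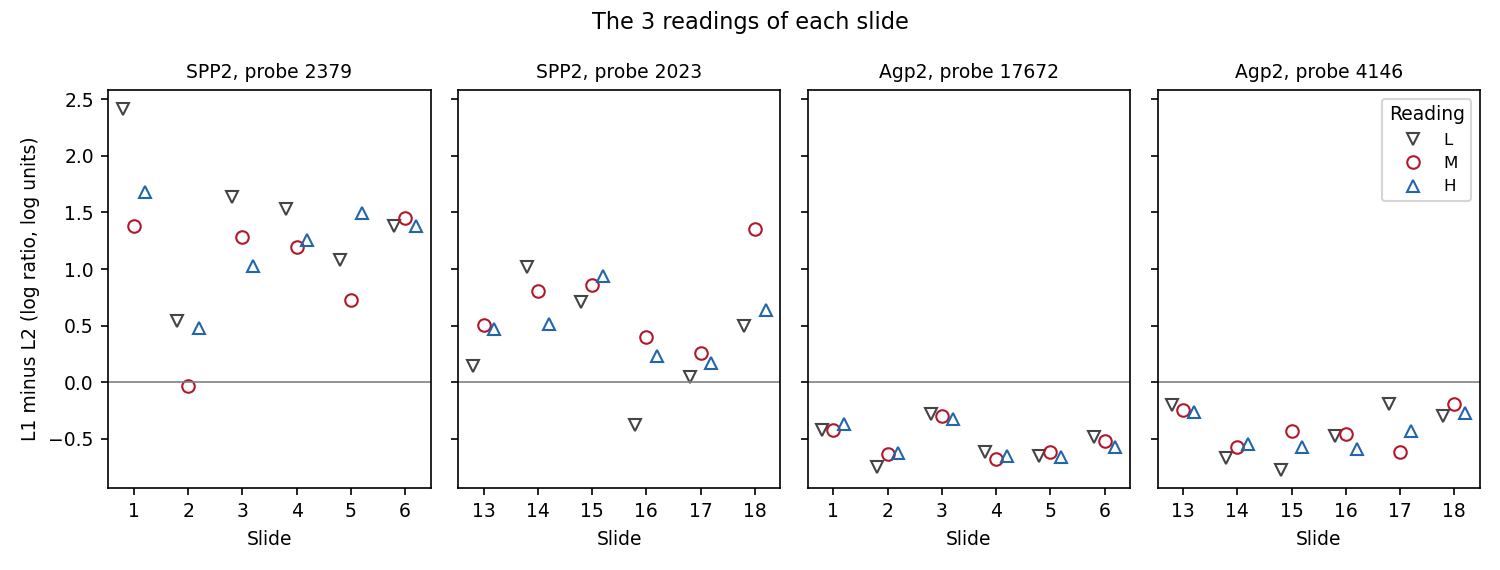
Log ratio, L1 minus L2 in log units, of the L, M and H readings of each slide for both SPP2 probes and for Agp2 probes 17672 and 4146. The SPP2 readings of a slide lay up to 1.04 apart, and the 6 slides of Agp2 probe 17672 had readings at most 0.12 apart.

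Agp2 encodes a small subunit of ADP-glucose pyrophosphorylase, and its synonym refers to the embryo form. On slides 1 to 6 its probe 17672 had log ratios of -0.40, -0.67, -0.30, -0.65, -0.64 and -0.53. All 6 slides were below 0 and they lay within a narrow span. The difference was -0.53 ± 0.0759 (SE, n = 6 slides, 95% interval -0.70 to -0.36) with a limma adjusted p of 0.00366. This is 1.45-fold lower in L1 at base 2 and 1.70-fold lower with the natural logarithm. The 3 slides with L1 in Cy5 averaged -0.61 ± 0.0756 (SD) and the 3 with L1 in Cy3 averaged -0.45 ± 0.175. Without slides 1 and 5, which leaves slide 3 as the only slide with L1 in Cy3, the difference was -0.46 and did not pass the test.

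On slides 13 to 18 Agp2 had a pair of probes that differed in their values. Probe 4146 had log ratios of -0.24, -0.59, -0.59, -0.51, -0.41 and -0.25, all below 0. Its difference was -0.43 ± 0.0698 (SE, n = 6 slides, 95% interval -0.60 to -0.27) with a limma adjusted p of 0.0349, or 1.35-fold lower in L1 at base 2 and 1.54-fold with the natural logarithm. Leaving out slide 13, 14, 15, 16 or 17 brought the adjusted p of this probe to between 0.0704 and 0.150 in limma, with the difference between -0.48 and -0.39. Probe 15508 had -0.36, 0.63, 0.04, 0.06, -0.21 and -0.42, with 3 slides on each side of 0. Its difference of -0.04 ± 0.129 (95% interval -0.35 to 0.26) did not pass the test (limma adjusted p = 0.924). Slide 14 held the highest value of probe 15508 and, nearly level with slide 15, the lowest of probe 4146.

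The mean paired difference, probe 4146 minus probe 15508, was -0.39 over the 6 slides, with probe 4146 the lower on 4 of them (exact sign-flip permutation test, two-sided p = 0.156, adjusted p = 0.954 over 57 pairs of probes). With 6 slides the smallest possible p is 0.0312, which could hardly pass after adjustment over 57 pairs, so the test does not show that the probes agree. Whether both probes bind the same transcript was not tested. The mean over the Agp2 probes was -0.53 ± 0.151 on slides 1 to 6 and -0.24 ± 0.130 on slides 13 to 18 (SD, n = 6 slides each). Fitted as 1 mean per gene, Agp2 did not pass the test on slides 13 to 18 (limma adjusted p = 0.133). The difference between the designs was -0.29 (exact permutation test, two-sided p = 0.01, adjusted p = 0.08 over 8 comparisons) and did not pass the test. With the H reading alone it was -0.30 with an adjusted p of 0.04 in the same exact test. This test treats the slides as independent, although extract pairs 2, 3 and 4 are on both designs. The later design's mean includes probe 15508, and the called probes 17672 and 4146 alone lay at -0.53 and -0.43. On the extract pairs numbered 2, 3 and 4, slides 2 to 4 gave gene means of -0.67, -0.30 and -0.65, and slides 14 to 16 gave 0.02, -0.27 and -0.22. In the ADP-glucose list the gene nearest in role is bt2, brittle2, which encodes the small subunit of the kernel endosperm. Its 1 probe, on slides 1 to 6, had a difference of -0.23 ± 0.0801 (95% interval -0.41 to -0.05) and did not pass the test (limma adjusted p = 0.207, 2 of 6 slides above 0). The remaining gene of that list, bt1, brittle1, which encodes a transporter of ADP-glucose into the plastid, lay on the other side at 0.28 ± 0.262 (SE, limma adjusted p = 0.681, 3 of 6 slides above 0).

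**Figure D3:**
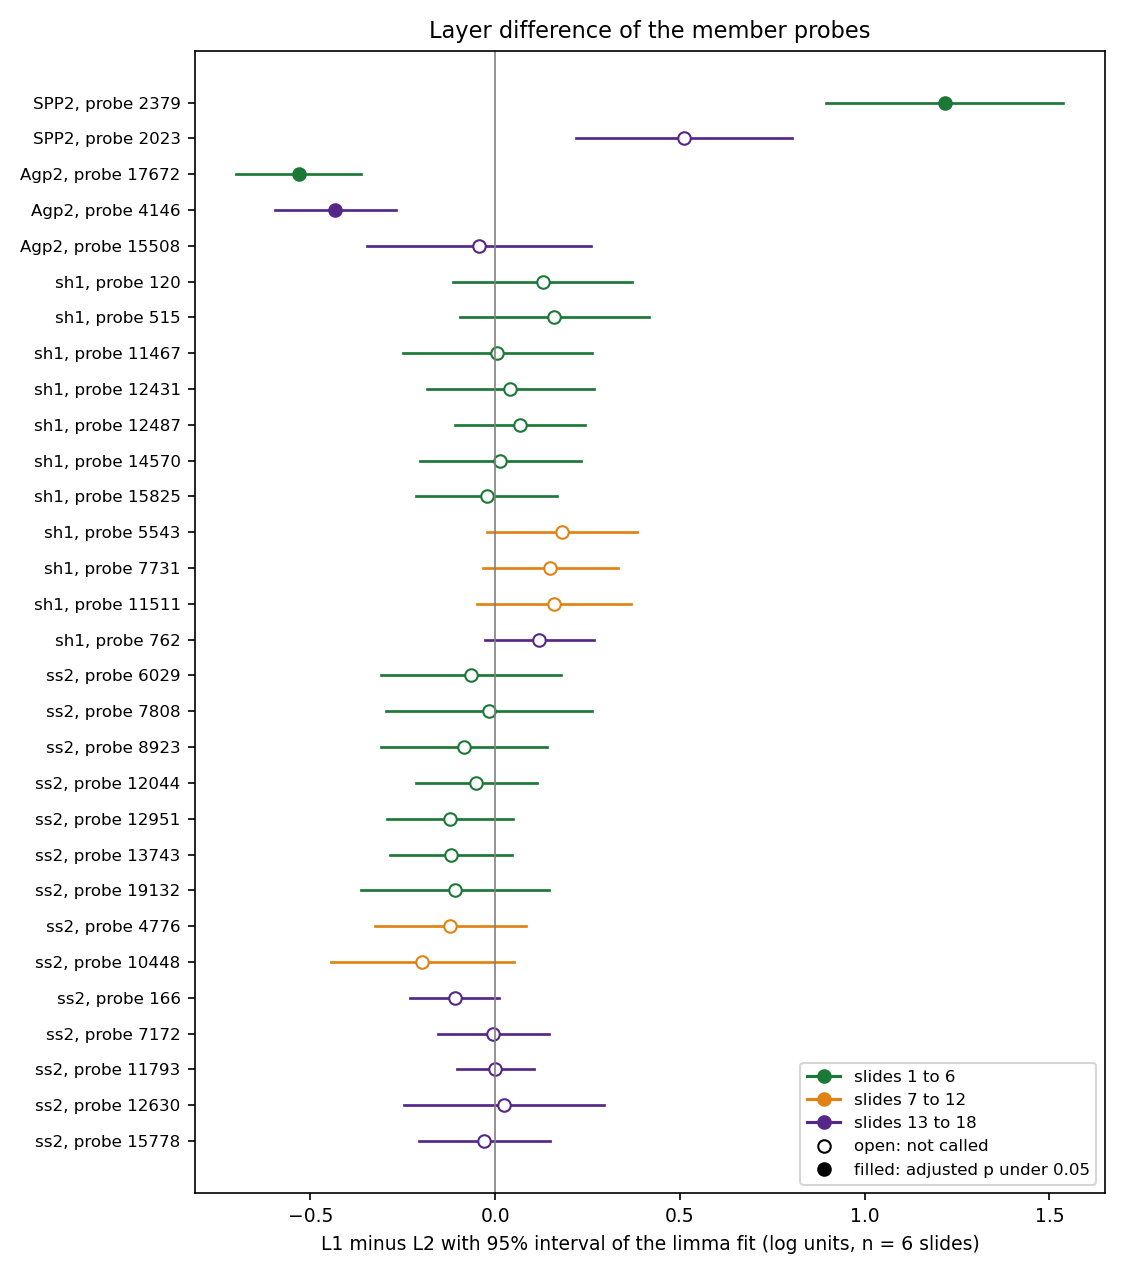
Fitted difference, L1 minus L2 in log units, of the 30 member probes with 95% intervals from limma (n = 6 slides each), coloured by array design, filled where the adjusted p was under 0.05. The 3 filled probes are SPP2 2379 on the right and Agp2 17672 and 4146 on the left, and all sh1 and ss2 intervals include 0.

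The gene sh1, shrunken1, encodes the sucrose synthase whose loss gives kernels with a collapsed endosperm. None of its 11 probes passed the test, and none had an unadjusted limma p under 0.05, against 14.8% of all probes on slides 1 to 6, 13.8% on slides 7 to 12 and 12.9% on slides 13 to 18. Their differences lay between -0.02 and 0.18, with 10 above 0, and the lowest adjusted p was 0.406 in limma. The 95% intervals together spanned -0.25 (probe 11467) to 0.42 (probe 515), which is wider than the interval of any single probe. The mean over probes was 0.06 ± 0.229 on slides 1 to 6, 0.16 ± 0.174 on slides 7 to 12 and 0.12 ± 0.131 on slides 13 to 18 (SD, n = 6 slides each). On each design the SD over slides was larger than the mean. On slides 1 to 6 the mean was -0.02 without slide 4 and 0.15 without slide 6. With 1 slide left out it lay between 0.11 (without slide 10) and 0.22 (without slide 7) on the second design, and between 0.08 (without slide 16) and 0.16 (without slide 18) on the third.

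The sh1 probes of a slide lay closest on slides 7 to 12. The gene means there were -0.07, 0.09, 0.29, 0.42, 0.20 and 0.07, and the 3 probes of slide 10 read 0.36 to 0.46. On slides 1 to 6 the gene means were -0.07, 0.10, 0.07, 0.37, 0.18 and -0.31. The 7 probes spread from -0.03 to 0.67 on slide 4 and from -0.60 to 0.06 on slide 6, so these slides lay at opposite ends. The single probe of slides 13 to 18 read -0.02, 0.14, 0.17, 0.29, 0.19 and -0.05. Over 24 pairs of sh1 probes read on the same slides, the largest mean difference was 0.18.

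The other sucrose synthase gene, ss2, likewise had no probe that passed the test among 14, and none with an unadjusted limma p under 0.05. Its differences lay between -0.20 and 0.02, with 12 below 0, and the lowest limma adjusted p was 0.429. The 95% intervals together spanned -0.44 (probe 10448) to 0.30 (probe 12630). The mean over probes was -0.08 ± 0.243 on slides 1 to 6, -0.16 ± 0.189 on slides 7 to 12 and -0.02 ± 0.141 on slides 13 to 18 (SD, n = 6 slides each). As for sh1, the SD over slides was larger than the mean on each design. On slides 1 to 6 the mean was -0.0061 without slide 3 and -0.23 without slides 1 and 5, where slide 3 alone has L1 in Cy3. On slides 13 to 18 the mean was 0.03 without slide 15 and -0.06 without slide 17.

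The ss2 gene means were 0.17, -0.25, -0.24, -0.35, 0.25 and -0.07 on slides 1 to 6. Slides 7 to 12 gave 0.06, -0.32, -0.18, -0.36, -0.24 and 0.08. Slides 13 to 18 gave 0.09, -0.08, -0.15, -0.14, 0.20 and -0.06. In each design the slides of L1 extracts 1 and 5 stood above 0 and all others below. Of the slides above 0, slides 1, 5, 7, 13 and 17 had L1 in Cy3, and slide 12 had it in Cy5. Slides 3, 9, 11 and 15 also had L1 in Cy3 but lay below 0. Extract and dye are thus largely confounded in this pattern. For probe 12951 the slides with L1 in Cy5 averaged -0.33 and those in Cy3 0.08, while probe 12044 had 0.04 and -0.14. Single probes differed in spread: probe 11793 had an SD over slides of 0.063, and probe 7808 had 0.446. Over 32 pairs of ss2 probes read on the same slides, the largest mean difference was 0.13. Spotted cDNAs of related genes can bind each other's transcripts, and whether sh1 and ss2 probes did so was not tested.

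Because extract numbers recur, slides of the 3 designs can be read side by side. L1 extract 4 gave the highest sh1 mean of each design, at 0.37, 0.42 and 0.29 on slides 4, 10 and 16. The ss2 means of the same slides were -0.35, -0.36 and -0.14, all below 0. L1 extract 1 gave sh1 means of -0.07, -0.07 and -0.02 on slides 1, 7 and 13, and ss2 means of 0.17, 0.06 and 0.09. The order of the sucrose synthase genes was thus the opposite in extracts 4 and 1. L1 extract 5 gave the highest ss2 mean of each design, at 0.25, 0.08 and 0.20 on slides 5, 12 and 17. These slides shared RNA extracts by number, so the repeat across designs is not an independent repeat. L1 was in Cy5 on all 3 slides of extract 4 and in Cy3 on all 3 slides of extract 1, so extract and dye cannot be told apart there. The dye term passed the limma test for none of the 30 member probes (lowest adjusted p = 0.114). Over all probes it passed for 415 on slides 1 to 6, 1 on slides 7 to 12 and 0 on slides 13 to 18.

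The difference of the gene means, sh1 minus ss2, averaged 0.14 ± 0.383 on slides 1 to 6, 0.32 ± 0.338 on slides 7 to 12 and 0.14 ± 0.212 on slides 13 to 18 (SD, n = 6 slides each). It was above 0 on 3, 4 and 4 of 6 slides of the 3 designs. It reached 0.71, 0.78 and 0.43 on the slides of extract 4. These values are a description and were not tested. Between designs, no difference of sh1 or ss2 means passed the exact permutation test (6 of the 8 comparisons, lowest two-sided p = 0.17, adjusted p = 0.453). That test treats slides as independent although the designs share extracts. On the 5 extract pairs shared by slides 7 to 12 and 13 to 18, the ss2 mean was lower on slides 7 to 12 each time, a pairing that was not tested.

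**Figure D4:**
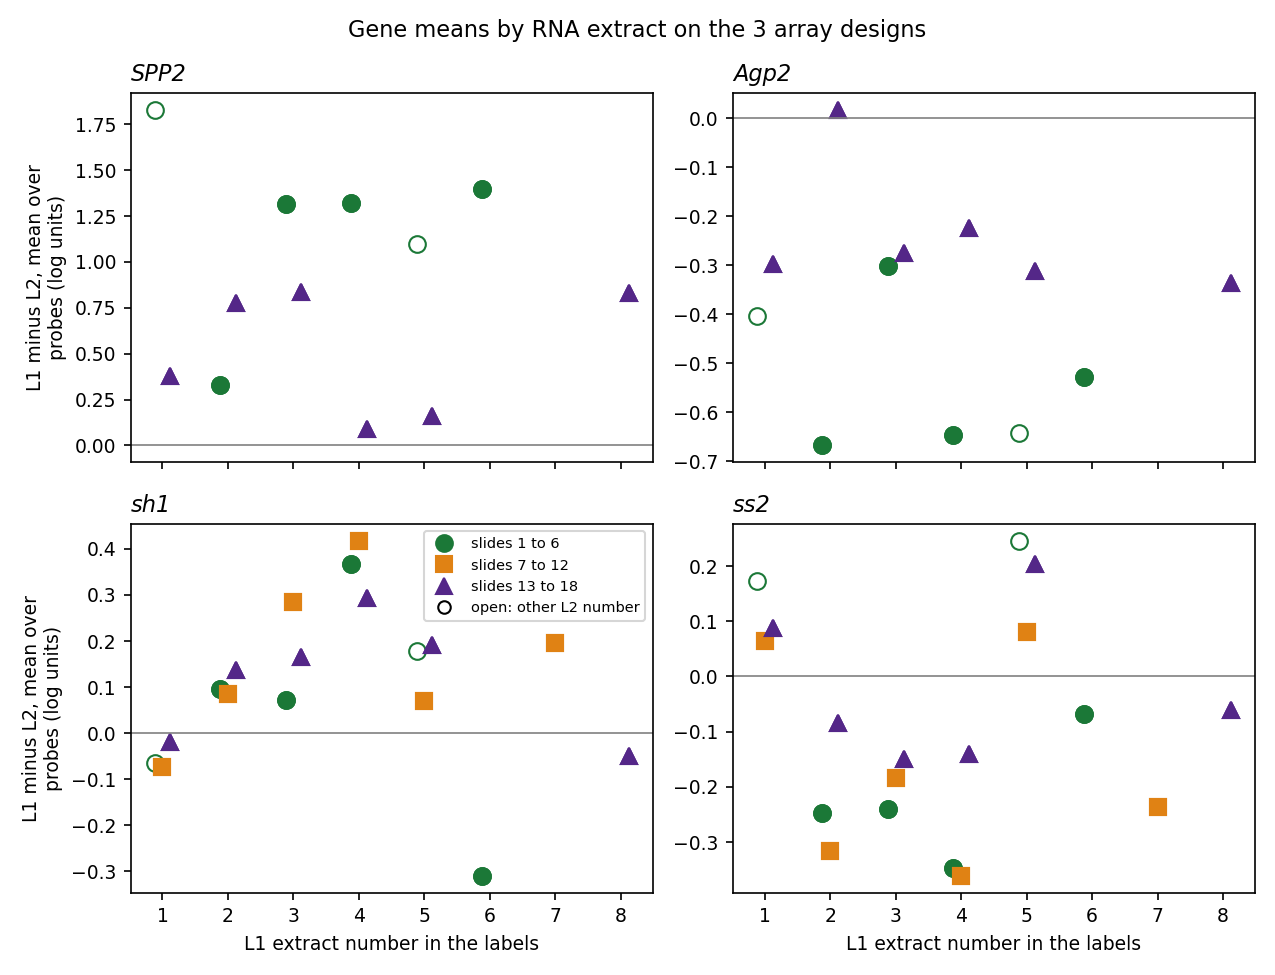
Mean log ratio over the probes of a gene, L1 minus L2 in log units, by the number of the L1 extract, with 1 symbol and colour per array design and open symbols where the L2 number differs (slides 1 and 5). For sh1, extract 4 was highest on all 3 designs (0.29 to 0.42), and for ss2, extracts 1 and 5 were above 0 and all others below. The slides of extracts 1 and 5 had L1 in Cy3, except slide 12. The vertical scales differ between panels.

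Likeness to other named genes was measured by Pearson's r over 12 slides or more, as a description, since the slides share extracts and dyes. Among 381 genes, those with the highest r to SPP2 were ys1 (0.753), GIF2 (0.709) and LOC542510 (0.698), with mean differences of 0.16, 0.10 and 0.18. For Agp2 they were PIP2-1 (0.827), RR9 (0.746) and the corpus marker kn1 (0.743). The mean differences of PIP2-1 and kn1 were -0.16 and -0.69, on the same side as Agp2, and that of RR9 was 0.01. Among 511 genes, sh1 was most like LOC542721 (0.868), LOC542727 (0.827) and hsp70-5 (0.798), with mean differences of 0.00, 0.05 and 0.08. For ss2 they were ec2e (0.878), LOC606477 (0.807) and MADS37 (0.799), with mean differences of 0.00, -0.84 and -0.03. Each of these 12 correlations was taken over 12 slides, pooled over array designs without removing differences between the designs.

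The other genes of sucrose and starch metabolism were read from lists in 6 roles. They comprised 16 genes with 42 probes, of which 0 had an adjusted p under 0.05 in limma and 13 had an unadjusted p under 0.05. These 13 were 7 of 15 probes of the first design, 1 of 8 of the second and 5 of 19 of the third, to be read against the shares of all probes given above for sh1. Probes of GBSSIIa, which has 8 of the 42, are among the 13 on each design, and both frk2 probes on the third. Repeat probes of 1 gene on the same slides are not independent. The median difference of the 42 probes was -0.02 and their range -0.33 to 0.50. Over the whole list with the 4 genes, the median was -0.04 on slides 1 to 6, -0.01 on slides 7 to 12 and -0.00 on slides 13 to 18. The medians over all probes of these designs were -0.00, -0.02 and 0.00. The cell wall invertase gene mn1 was on the list but had no value.

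In sucrose synthesis, sps1, a sucrose-phosphate synthase and the enzyme before SPP2, had 1 probe at 0.17 ± 0.172 (SE) on slides 7 to 12, and ra3, a trehalose-phosphate phosphatase, had 1 at 0.14 ± 0.0746 on slides 1 to 6. Neither passed the test (limma adjusted p = 0.692 and 0.438). In sucrose use, both probes of frk2, a fructokinase that acts on the fructose released by sucrose synthase, were above 0 on 6 of 6 slides of slides 13 to 18. They had differences of 0.50 ± 0.108 and 0.39 ± 0.0802 (SE), with limma adjusted p of 0.0867 and 0.0764. The other fructokinase, frk1, had 4 probes between -0.07 and 0.18. The 3 probes of the sucrose transporter gene sut1 lay between 0.00 and 0.05.

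In starch synthesis, the 8 probes of GBSSIIa, a granule-bound starch synthase, were all below 0, between -0.33 and -0.07. None passed the test, and the lowest limma adjusted p was 0.0854. The branching enzyme gene ae1 had 1 probe at -0.29 ± 0.0843 (SE, limma adjusted p = 0.130), while the 4 probes of the branching enzyme gene sbe1 lay between -0.02 and 0.03. The waxy gene wx1, the granule-bound starch synthase of the endosperm, had probes at -0.04 and -0.02. The 6 probes of starch debranching and breakdown genes lay between -0.10 and 0.19. The genes of these lists other than the 4 members were chosen for mention after their values were seen.

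**Figure D5:**
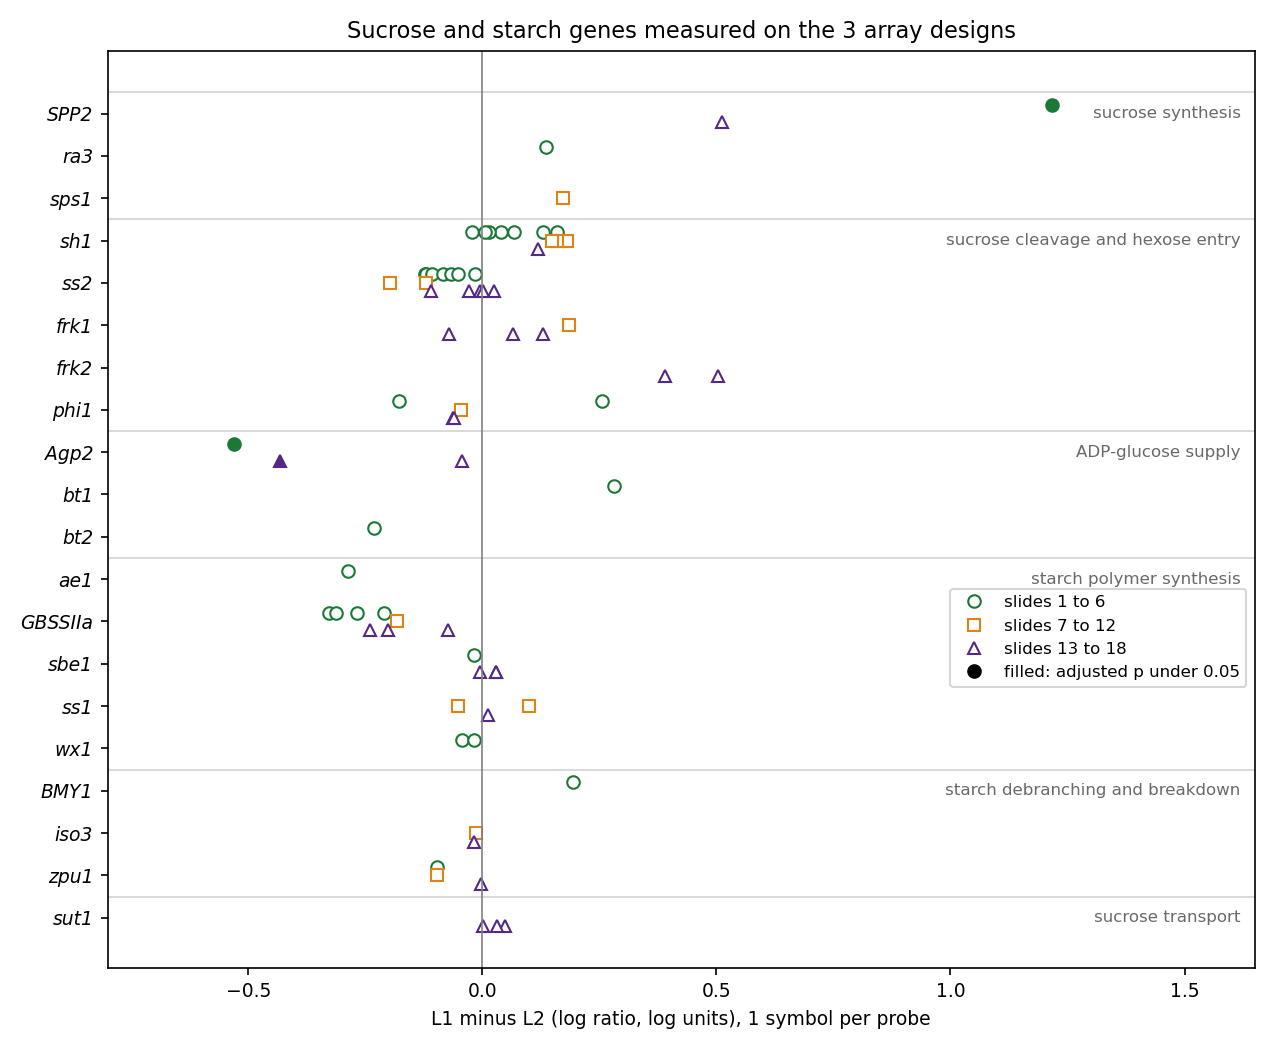
Fitted difference, L1 minus L2 in log units, of every probe of the sucrose and starch lists, by gene and role, with 1 symbol and colour per array design and filled symbols where the limma adjusted p was under 0.05. The 3 filled symbols belong to SPP2 (1.22) and Agp2 (-0.53 and -0.43), and the 42 probes of the other 16 genes are open and lie between -0.33 and 0.50.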

How the data were processed

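The authors deposited 54 columns, 3 readings of each of 18 slides, whose signs and range are those of log ratios of the 2 channels. The tests were written for log2 values, but how the authors normalised them and which base they used is stated in no source used here. Readings of a slide were averaged and turned by dye orientation, and each slide was 1 replicate. For each design, limma 3.58.1 (R 4.3.3) fitted a layer and a dye term per probe, with 4 residual degrees of freedom. Its two-sided p-values received the Benjamini-Hochberg adjustment across every probe measured on that design, and calls were made below 0.05. The fit was checked on simulated data whose slides were independent, so that check does not cover shared extracts. The p-values set each difference against the spread between 6 slides, whose number limits the precision. The main limma fit treats the slides of a design as independent. On slides 1 to 6 this is not so, since slides 1 and 2, and slides 5 and 6, share an L2 number. The limma p-values of SPP2 and Agp2 on that design carry this limit.

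Differences between designs and between probes were tested by exact permutation (Python 3.11.15, numpy 2.4.6). Of the probes listed, 1800, 886 and 1159 carried 1 gene in the platform annotation, 23, 0 and 1 carried several, and 17377, 13194 and 14840 carried none. Names were updated through RefSeq (Zm-B73-REFERENCE-NAM-5.0). Named by rule were all member probes, every list gene with a called probe, and the 3 genes with the highest r to each member, and other list genes were added after their values were seen. The symbol ss2 was moved from the starch list to sucrose cleavage after its synonyms were read. The members and lists were chosen with earlier results of these data known. Alternatives were each reading alone or their median, no dye term, centring, scaling, robust shrinkage, shared L2 extracts as a block, means per gene, the turned sign, no slides 1 and 5, and each slide left out.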

Additional observations from a re-analysis of the deposited data

Results flagged for a closer look

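By an outlier rule applied to the 30 member probes, 1 slide was flagged as apart from the others, for 1 probe. Slide 2 of SPP2 probe 2379, at 0.33, was not flagged by it. For sh1 probe 15825, slide 6 read -0.43, while slides 1 to 5 read between -0.04 and 0.15. Chance alone sets a slide apart in about 1 of 20 such groups, a share that 1 of 30 probes does not exceed. Slide 6 also gave the lowest value of 6 of the 7 sh1 probes on its design.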

How the results depend on the processing

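Counts of called probes over all genes depended on the slides used. On slides 1 to 6 they were 409, against 261 with the L reading alone, 258 with no dye term, 78 without slides 1 and 5, 577 with shared L2 extracts as a random block, and 211 to 417 with 1 slide left out. The block fit used ratios before turning, where a shared L2 enters slides 1 and 2, and slides 5 and 6, with opposite signs. Its fitted correlation within a shared L2 was 0.208, so it does not account for the sharing. The fit without slides 1 and 5 keeps slide 3 as the only slide with L1 in Cy3. On slides 7 to 12 the counts were 129, against 82 with L, 76 with H, 77 after scaling, and 38 to 65 with 1 slide left out. On slides 13 to 18 they were 224, against 79 with L and 88 to 231 with 1 slide left out. No alternative called a probe of sh1 or ss2.

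Counting the block fit, which does not account for the shared L2, SPP2 probe 2379 and Agp2 probe 17672 stayed called in 16 of 17 alternatives. The exception was the fit without slides 1 and 5 (1.17 and -0.46). With 1 slide left out these probes lay between 1.11 and 1.39, and between -0.57 and -0.48. SPP2 probe 2023 was called in none (0.34 to 0.70, limma adjusted p 0.0720 to 0.581). Agp2 probe 4146 was not called with the L reading (-0.43), the M reading (-0.42) or scaling (-0.45). With 1 slide left out it lay between -0.48 and -0.39, and only without slide 18 was it still called. Agp2 probe 15508 lay between -0.18 and 0.08 with 1 slide left out, above 0 without slide 13 (0.0028) and without slide 18 (0.084). The cause of these changes was not tested, and the fits with slides left out also rest on fewer slides. With the H reading 1 difference between designs was called, that of Agp2 (-0.30), in a test that treats slides sharing extracts as independent. Read as Cy3 over Cy5, the values become -1.22 and -0.51 for SPP2 and 0.53, 0.43 and 0.043 for Agp2.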
